A study of Homo sapiens with 4 samples.

Results

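The genes described here are 10 components of the heat shock system, HSP90AA1, HSP90AB1, HSPA8, HSPA4, HSPH1, HSPD1, HSPE1, HSPB1, DNAJB1 and HSF1. A gene was followed through every probe set whose annotation names it and no other gene, and its level is that of the probe set with the highest mean log2 signal. By this rule 9 of the 10 genes were measured, on 25 of 54675 probe sets, out of 19775 genes that had such a probe set. HSPA8, the constitutive cytosolic HSP70, has none, as each of its 4 probe sets also names small nucleolar RNAs hosted in its introns, and no value is given for it. Not all of these proteins are cytosolic: HSPD1 and HSPE1 form the chaperonin of the mitochondrial matrix, and HSF1 is the transcription factor that drives heat shock genes.

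The data are 4 Affymetrix U133 Plus 2.0 arrays, 1 for each condition. MDA-MB-231, a triple-negative line from breast cancer, and T-47D, a breast cancer line with hormone receptors, were each given 100 μM JPH203, an inhibitor of the leucine transporter LAT1, or Captisol, the cyclodextrin vehicle, also labelled 100 μM, for 24 h. Both are established lines and no genetic change separates the treated from the control cells of a line. With 1 array per condition there is no replicate, so no difference has an error, a test or a p-value, and a signal from a whole culture cannot tell fewer expressing cells from less RNA in each cell. Marker genes matched the labelled lines, as 8 of 8 luminal markers had 2-fold or more signal in control T-47D cells, and 7 of 8 mesenchymal markers in control MDA-MB-231 cells, SPARC being under the minimum signal in both. Poly-A spike-in RNA on the JPH203 array read 0.916 times that of the control array in MDA-MB-231 cells and 1.57 times in T-47D cells, and the 3-prime to 5-prime ratio of ACTB was 1.39 in the T-47D control and 1.72 with JPH203. The part of these values in the results was not tested.

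Heat shock proteins are molecular chaperones that bind unfolded or unstable proteins and help them reach or keep their fold. HSP70 proteins take up exposed stretches of a client with the help of J-domain proteins and are reset by exchange factors of the HSP110 type, HSP90 finishes the folding of kinases and steroid receptors, and small heat shock proteins hold clients until they are refolded. When unfolded protein accumulates in the cytosol, HSF1 is released, forms trimers and binds heat shock elements, repeats of a short unit that stand head to head or tail to tail upstream of these genes. Lack of amino acids is known to act first through another route, GCN2 and ATF4, which has its own target genes.

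The heat shock element was looked for in the promoters of the 10 genes, to show which of them carry the sequence that HSF1 reads. The RefSeq promoter windows of GRCh38.p14 held 9 of the 10 genes in 15 windows, each reaching from 250 bases before an annotated start site to 50 bases after it. The motif searched was a pair of units, TTCNNGAA or GAANNTTC, each its own reverse complement so that both strands were covered, and then 3 units in a row, TTCNNGAANNTTC or GAANNTTCNNGAA, which contain overlapping pairs. A pair of units was found in at least 1 window of 6 of the 9 genes, against 16.2% of all 27305 genes with windows. All 3 units in a row were found for 4 of the 9, HSP90AA1, HSP90AB1, HSPA8 and HSPD1, against 0.608% of all genes. The stretches below, 5′ to 3′ on the strand of the gene with the motif in capitals, show the measured genes with a motif wholly before a start site, and HSPA4, HSPH1 and HSPE1 had none in their windows.
HSP90AA1, minus strand, chr14:102087080-102087157, 113 to 36 bases before the downstream one of 2 annotated start sites: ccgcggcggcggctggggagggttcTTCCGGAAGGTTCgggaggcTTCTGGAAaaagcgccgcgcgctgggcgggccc
HSP90AB1, plus strand, chr6:44247770-44247798, before the third of 3 annotated start sites: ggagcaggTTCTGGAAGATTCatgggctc
HSP90AB1, plus strand, chr6:44247823-44247851, before the same start site: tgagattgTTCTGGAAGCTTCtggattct
HSPD1, minus strand, chr2:197500062-197500090, 250 to 222 bases before the downstream one of 2 annotated start sites: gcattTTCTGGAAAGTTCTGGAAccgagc
DNAJB1, minus strand, chr19:14518412-14518499, 102 to 15 bases before 1 of 3 annotated start sites: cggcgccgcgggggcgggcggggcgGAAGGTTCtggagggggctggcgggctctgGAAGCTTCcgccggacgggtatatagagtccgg
HSPB1, plus strand, chr7:76302466-76302523, 207 to 150 bases before the start site: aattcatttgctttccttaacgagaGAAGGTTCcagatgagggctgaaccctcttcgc
A match is a string of letters in the reference genome, and no binding was measured. HSPD1 and HSPE1 are neighbours that are read in opposite directions, with start sites 105 or 539 bases apart depending on which HSPD1 start is taken. The 3-unit runs shown for HSPD1 lie 311 to 294 bases before the HSPE1 start, outside its window, and 189 to 206 bases after the upstream HSPD1 start.

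The level of each gene was first read on the 4 arrays. Between 2 and 5 probe sets measured each of HSP90AA1, HSP90AB1, HSPA4, HSPH1, HSPD1, DNAJB1 and HSF1, and 1 each HSPE1 and HSPB1. The minimum signal for reading a ratio, 100, was reached on all 4 arrays by 8 of the 9 genes. HSF1 was dim, at 91.9 to 159.8 on its brighter probe set and 2.2 to 19.9 on the other. Signals of different probe sets are not compared with each other, as each has its own affinity.

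**Figure D1:**
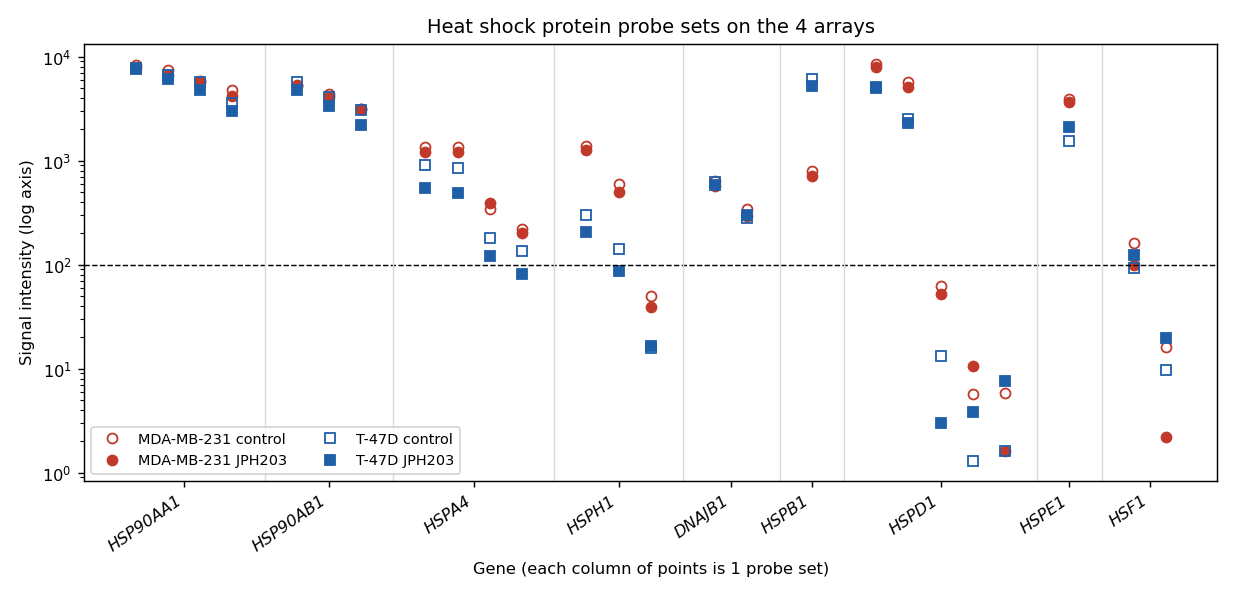
The y axis (log) is the signal intensity of each probe set that names one of the 9 measured genes alone (x axis, grouped by gene, brightest first). Each symbol is 1 array, open where the cells had vehicle and filled where they had JPH203, with circles standing for MDA-MB-231 and squares for T-47D. A dashed line marks a signal of 100; the HSP90 points lie close together, HSPB1 is higher on both T-47D arrays, and HSPH1 is higher on both MDA-MB-231 arrays.

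In MDA-MB-231 cells none of the 8 genes with enough signal changed 2-fold with JPH203, the threshold that the study states. All 8 had a ratio of JPH203 to control just below 1, from 0.896 for DNAJB1 to 0.976 for HSP90AB1, with a median log2 ratio of -0.11. Over all 6757 genes measured in this line, 0.104% were called at 2-fold, 51.5% had a ratio below 1, and the median log2 ratio was -0.0066. Each of the 8 lay within the central 95% of the 500 probe sets nearest to it in signal. Bright probe sets as a whole also lay slightly below 1 in these cells, with a median ratio of 0.953 around the signal of HSP90AA1 and of HSPD1. With the trend on signal removed, HSP90AB1 had a ratio of 1.02 and the other 7 genes stayed below 1, and after scaling to the spike-ins 4 of 9 genes were below 1, HSF1 then being measured.

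In T-47D cells none of the 8 genes changed 2-fold either, where 4.58% of 6413 genes measured were called. Their ratios spread from 0.603 for HSPA4 to 1.37 for HSPE1, with 6 below 1 and 2 above, where 51.7% of all genes lay below 1. Their median log2 ratio was -0.16 beside -0.022 over all genes. Only HSPA4 was past a 1.5-fold threshold, on the lower side, as were 13.6% of all genes. Among the 17 probe sets of these genes with enough signal in T-47D cells, 14 had a ratio below 1, against 52.5% of all probe sets that name 1 gene, and probe sets of 1 gene are not independent. The central 95% of all genes ran from 0.505 to 1.97 in T-47D and from 0.778 to 1.32 in MDA-MB-231 cells, so a given ratio stands further out in the latter.

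**Figure D2:**
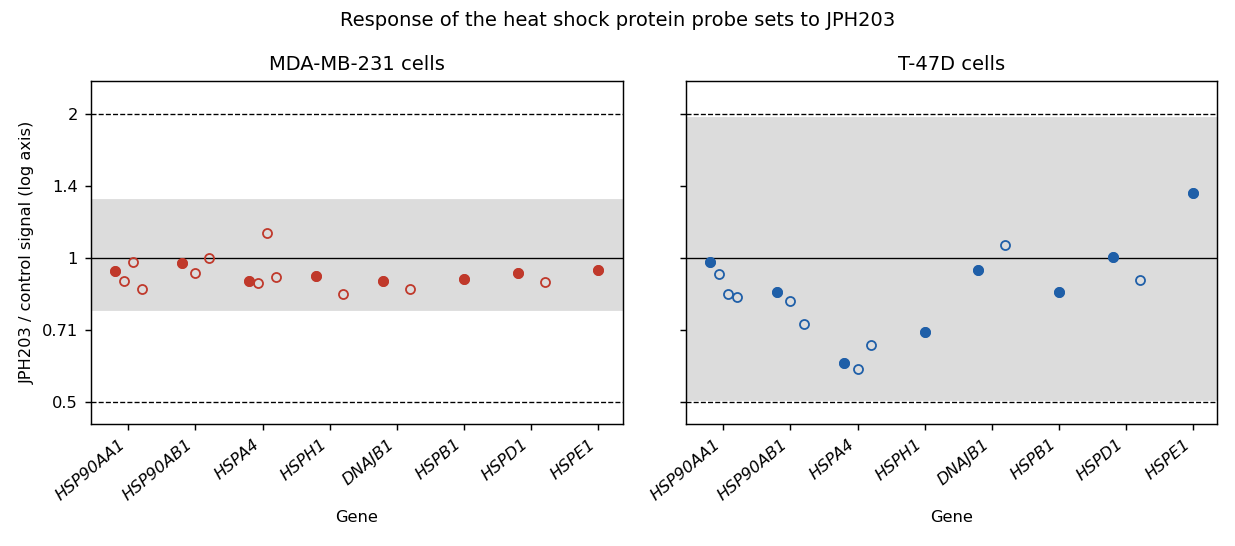
Ratio of the JPH203 signal to the control signal on a log axis (y axis) for each gene (x axis), MDA-MB-231 at left in red and T-47D at right in blue, each point being 1 probe set that read 100 or more on both arrays of the line, filled for the probe set that stands for the gene. The grey band holds the central 95% of all genes and the dashed lines are the 2-fold thresholds; no point crosses them, and HSPA4 is lowest and HSPE1 highest in T-47D cells.

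The HSP90 genes varied little between arrays on the probe sets that stand for them. HSP90AA1, the stress-inducible form, had signals of 8287 in the MDA-MB-231 control and 7780.3 with JPH203, and of 7721 in the T-47D control and 7567 with JPH203, so that the highest array was 1.10 times the lowest. On its other probe sets this was 1.21, 1.21 and 1.615 times, and on the dimmer probe sets of HSP90AB1 1.30 and 1.41 times. HSP90AB1, the constitutive form, read 5390.3 and 5258 in MDA-MB-231 cells, control first, against 5663.5 and 4801 in T-47D cells. Its JPH203 array in T-47D cells was the lowest of the 4 on all 3 probe sets, with ratios of 0.848, 0.813 and 0.727 there and of 0.976, 0.932 and 1.00 in MDA-MB-231 cells. The 4 probe sets of HSP90AA1 had ratios of 0.829 to 0.980 in T-47D and 0.863 to 0.980 in MDA-MB-231 cells. With the trend on gene length removed, the T-47D log2 ratio of HSP90AA1 turned to 0.11, while that of HSP90AB1 stayed below 0 under all 11 alternatives. Of these, other minimum signals could not change its value. Nor could leaving out probe sets that can match other transcripts, as the HSP90AB1 probe set is not named as one. The length taken for HSP90AA1 is its whole annotated span, 59.0 kb, whichever of its 2 start sites is used.

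Near 1 as they were, these ratios lay below the median of equally bright probe sets on the T-47D arrays, though within their central 95%. The ratio was higher at higher signal on these arrays. The 500 probe sets nearest to HSP90AA1 in signal had a median ratio of 1.38, with a central 95% from 0.841 to 1.94. Around HSP90AB1 the median was 1.28, and around HSPB1 1.31. With the loess trend on signal removed, the T-47D ratio was 0.736 for HSP90AA1, 0.668 for HSP90AB1, 0.662 for HSPB1 and 0.794 for HSPD1. The median log2 ratio of the 8 genes was then -0.42, and no gene was called at 2-fold. Whether the trend belongs to the arrays or to the cells was not tested.

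**Figure D3:**
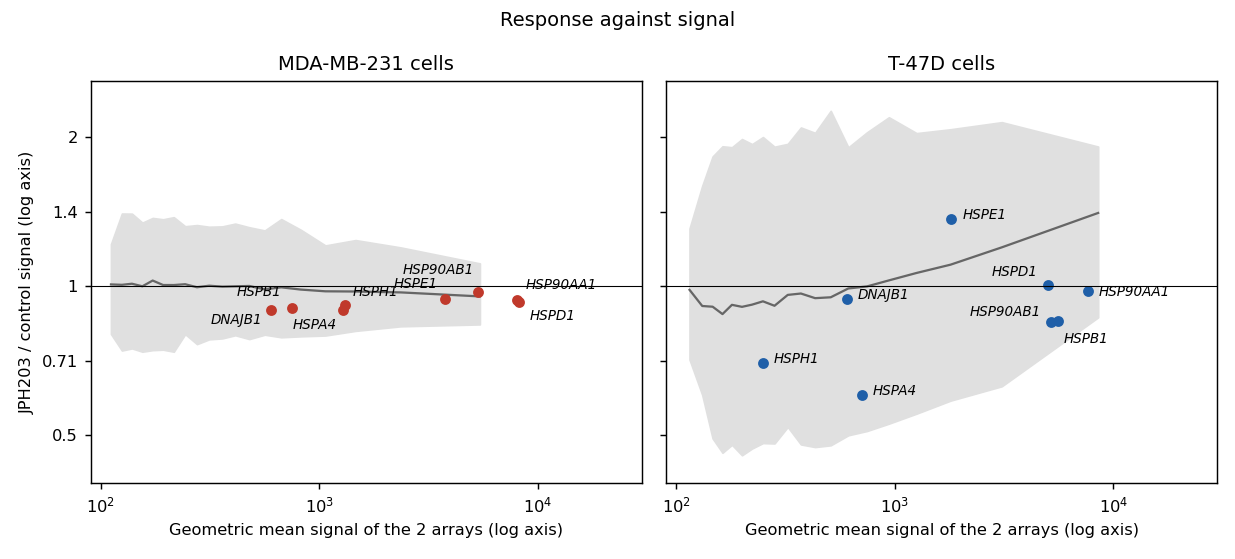
Ratio of JPH203 to control (y axis, log) against the geometric mean signal of the 2 arrays (x axis, log) with MDA-MB-231 at left in red and T-47D at right in blue, each labelled point being the probe set that stands for a gene. The grey line and band are the median and the central 95% of all probe sets that read 100 or more on both, in 20 bins of signal; in T-47D cells the line climbs to about 1.4 while HSP90AA1, HSP90AB1, HSPB1 and HSPD1 stay at 0.848 to 1.00.

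HSPA4 and HSPH1, both large HSP110-type relatives of HSP70 that exchange its nucleotide, had the lowest ratios in T-47D cells. HSPA4 read 911 in the T-47D control and 549.5 with the drug, which is 0.603 of the control, against 1349.9 and 1211 in MDA-MB-231 cells, which is 0.897. The T-47D JPH203 array was the lowest of the 4 on each of its 4 probe sets. The 3 with enough signal had ratios of 0.603, 0.586 and 0.658 in T-47D cells. In MDA-MB-231 cells the 4 had 0.897, 0.889, 1.13 and 0.914, the probe set at 1.13 being the one whose name carries neither _s_at nor _x_at, the endings of probe sets that can match other transcripts. HSPA4 kept a ratio below 1 in T-47D cells under all 11 alternatives that gave a value, with a log2 ratio between -1.38 and -0.60. Among these, other minimum signals could not change the ratio. The genes that were 2-fold lower in T-47D cells had a median genomic length of 86.1 kb against 27.0 kb for all genes measured, HSPA4 spans 54.4 kb, and with the trend on length removed its ratio was 0.658.

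HSPH1 read 298 in the T-47D control and 208 with the drug, 0.700 of the control. In MDA-MB-231 cells it had 1377 and 1264, a ratio of 0.918. The next probe set gave 142.5 and 87.2 in T-47D cells, the latter under the minimum, and 591.5 and 497 in MDA-MB-231 cells, and the third was under 50 on all 4 arrays. On both brighter probe sets the order of the arrays was that of the brightest HSPA4 probe set, with T-47D below MDA-MB-231 and JPH203 below control in each line.

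DNAJB1, the J-domain partner of HSP70 and a heat-inducible gene, had 637 and 570.3 in MDA-MB-231 cells, a ratio of 0.896. In T-47D cells it had 622.5 and 587, a ratio of 0.942. All 4 arrays lay within 1.12 times of each other. On the dimmer probe set the MDA-MB-231 ratio was 0.861 and the T-47D ratio 1.06, so the direction in T-47D cells depends on the probe set. HSPB1, the small heat shock protein HSP27, had 793 and 716 in MDA-MB-231 cells, a ratio of 0.903, while T-47D cells read 6095.5 and 5175, which gives 0.849. For HSPB1 both T-47D arrays read more than both MDA-MB-231 arrays. For HSP90AA1, HSPA4, HSPH1, HSPD1 and HSPE1 both MDA-MB-231 arrays read more, on the probe set that stands for the gene. For HSP90AA1 the highest array was only 1.10 times the lowest. The arrays of a line differ in treatment and are not replicates. Of all genes 47.3% differed 2-fold between the controls, and the share split by line in this way was not counted. These splits are therefore not read as a trait of the heat shock genes.

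Of the mitochondrial pair, HSPE1 had the highest ratio of the 8 genes in T-47D cells and HSPD1 a ratio of about 1. HSPE1, the lid of the chaperonin, had signals of 1554 and 2125 there, a ratio of 1.37, and of 3879 and 3659 in MDA-MB-231 cells, a ratio of 0.943. HSPD1, the barrel, read 5028 and 5050.5 in T-47D cells, for a ratio of 1.00, against 8518 and 7930.5 in MDA-MB-231 cells, where it was 0.931. The second bright HSPD1 probe set had a ratio of 0.900 in T-47D cells, and the other 3 were under the minimum on every array. HSPE1 thus stood 0.45 above the T-47D control on the log2 scale while its partner and neighbour HSPD1 stood at 0.0063. The 500 probe sets nearest to HSPE1 in signal had a T-47D median ratio of 1.10 and a central 95% from 0.586 to 2.09. The HSPE1 ratio stayed above 1 under 9 of the 10 alternatives that gave a value and lay below it after scaling to the spike-ins, at a log2 ratio of -0.20. Other minimum signals and the averaging of probe sets could not change it, as HSPE1 has 1 probe set. Under median centring, quantile normalization and the loess on signal or gene length its log2 ratio was 0.29, 0.30, 0.29 and 0.27. The HSPD1 ratio lay below 1 under 5 of 9 alternatives, the others being the pseudocount and the other minimum signals.

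No change is read for HSF1. Its brighter probe set had 159.8 and 98.4 in MDA-MB-231 cells, control first, against 91.9 and 125 in T-47D cells, so that in each line 1 of the 2 arrays lay under the minimum. HSF1 is known to be controlled mainly by its release and modification, which an RNA level does not show.

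The lines were next set side by side without the drug. All 9 genes read 100 or more on 1 control array or both, and 3 of them passed 2-fold, HSPH1 and HSPE1 with more signal in MDA-MB-231 cells and HSPB1 with more in T-47D cells. Of all 8258 genes measured 47.3% passed 2-fold, 23.1% with more signal in MDA-MB-231 and 24.2% with more in T-47D cells, so 3 of 9 is not above the background. HSPB1 had a signal of 6095.5 in T-47D and 793 in MDA-MB-231 cells, 7.69 times as much. HSPH1 read 1377 in MDA-MB-231 cells against 298, a ratio of 4.63, and its next probe set gave 4.15. HSPE1 had a ratio of 2.50, and HSPD1 of 1.69 on its brighter and 2.25 on its next probe set, so each probe set of the mitochondrial pair that could be read had more signal in MDA-MB-231 cells. Of the 9 genes, HSPB1 and HSPD1 lay outside the central 95% of the 500 probe sets nearest in signal.

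The HSP90 genes and DNAJB1 had like signals in the 2 lines. The ratio of MDA-MB-231 to T-47D control was 1.07 for HSP90AA1, 0.952 for HSP90AB1 and 1.02 for DNAJB1. Their other probe sets gave 1.02 to 1.34 for HSP90AA1, 1.06 and 1.02 for HSP90AB1 and 1.22 for DNAJB1. The direction is not fixed for HSP90AB1, which was above 1 under 6 of 11 alternatives, nor for HSP90AA1 and DNAJB1, which were below 1 with the trend on gene length removed. The lengths taken for these 2, 59.0 and 45.6 kb, are whole annotated spans, and transcripts from a downstream start site are shorter. HSPA4 had a ratio of 1.48, and between 1.60 and 1.89 on its other probe sets. HSF1 had a ratio of 1.74, not read as a size, as its T-47D signal was below the minimum. The spike-in signal of the MDA-MB-231 control array was 0.311 times that of the T-47D control array, and scaling to it put all 9 genes past 2-fold, HSPB1 still higher in T-47D cells, at a log2 ratio of -1.26, and the others higher in MDA-MB-231 cells.

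**Figure D4:**
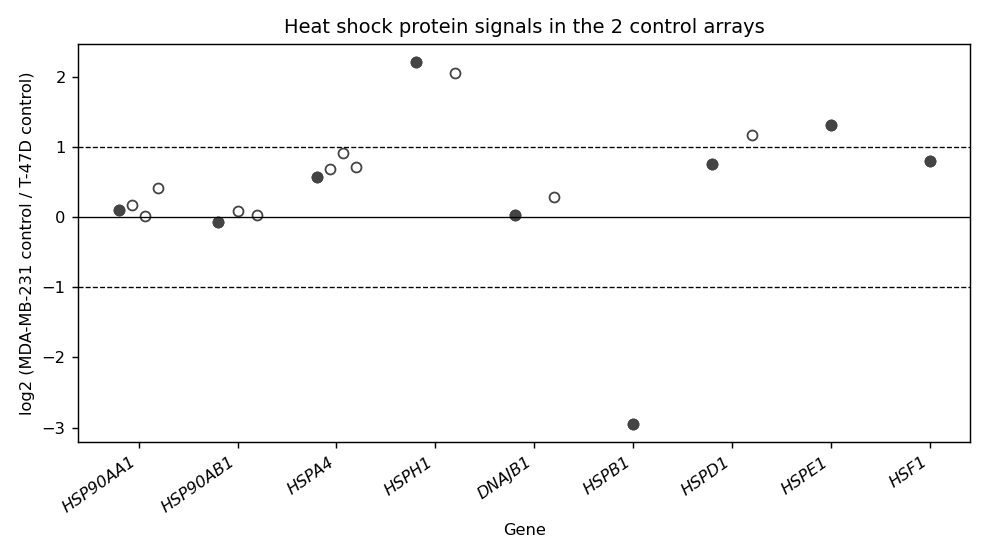
log2 ratio of the MDA-MB-231 control signal to the T-47D control signal (y axis) for each gene (x axis), each point being 1 probe set that read 100 or more on 1 of the 2 arrays or both, filled for the probe set that stands for the gene. The dashed lines are 2-fold; HSPH1 lies at 2.21, HSPE1 at 1.32 and HSPB1 at -2.94, while the HSP90 genes and DNAJB1 lie near 0.

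For each gene the nearest other genes were found by the largest difference over the 3 log2 ratios, among 5275 genes that read 100 or more everywhere. This is a likeness over 4 arrays and nothing more. The gene closest to HSPE1 was WDR75, at most 0.012 away, with ratios of 0.944 in MDA-MB-231, 1.36 in T-47D and 2.48 between controls. HSPD1 was nearest to UTP18, HSPA4 to BTAF1 and LDHA, and HSPH1 to RBMS1 and MORC4. HSPB1 was nearest to EPCAM, the luminal surface marker, with a control ratio of 0.119 and a distance of 0.15. CORO1B was almost as near, with a control ratio of 0.142 and a distance of 0.16.

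The rest of the chaperone system was read through 9 lists of 99 genes in all, 90 of them with a probe set of their own. With JPH203 none of the 66 genes measured in MDA-MB-231 cells changed 2-fold. In T-47D cells 2 of 64 rose and none fell, where 2.2% of all genes rose and 2.39% fell. After scaling to the spike-ins, which put the median log2 ratio of all genes at -0.55, the direction turned: 0 of 49 genes were 2-fold higher and 11 were 2-fold lower. Of all 4009 genes measured in that scaling 15 were higher and 793 lower. The genes that rose on the deposited values were VBP1, a subunit of prefoldin, which hands unfolded actin and tubulin to the TRiC chaperonin, from 757 to 1702, a ratio of 2.25, and HSCB, the mitochondrial J-domain protein of iron-sulfur cluster assembly, from 215 to 456, a ratio of 2.12 on a probe set that can match other transcripts (_x_at). In MDA-MB-231 cells these had ratios of 0.780 and 0.850.

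The list closest to a heat shock response, 21 genes known to be induced by heat through HSF1 and none of them among the 10, held 12 genes measured in T-47D cells. None rose and none fell, 8 had a ratio below 1, and the median log2 ratio was -0.37, below 0 in each scaling tried. After scaling to the spike-ins the median was -1.02 and 5 of 10 genes were called lower. Of all 4009 genes measured in that scaling 793 were lower, with a median of -0.55. Without _s_at and _x_at probe sets the median of the list was 0.12 over the 5 genes left. UBB, a polyubiquitin gene, had a ratio of 1.48 and CACYBP of 1.01. UBB is bright, and the brightest of 20 bins of signal had a median ratio of 1.41 on the T-47D arrays. BAG3, the HSP70 exchange factor most tied to HSF1, named here after its value was seen, had signals of 784 and 522 in T-47D and 1398 and 1453.5 in MDA-MB-231 cells. HSPA6, a strictly heat-inducible HSP70, also named after its values were seen, was at 7.3 to 14.0 on the 4 arrays, and the inducible HSPA1A and HSPA1B have no probe set of their own here. In MDA-MB-231 cells 9 of 13 genes of this list had a ratio below 1, with a median of -0.12.

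The other lists were mixed in T-47D cells. HSP90 co-chaperones had a median log2 ratio of -0.30 over 12 genes, with PTGES3, the co-chaperone p23, at a ratio of 1.28. After scaling to the spike-ins the median was -0.99 with 5 of 11 genes called lower, as were 793 of all 4009 genes. Without _s_at and _x_at probe sets the median was 0.09 over the 3 genes left. J-domain proteins had a median of -0.28 over 10 genes, DNAJA1 having a ratio of 0.745 and DNAJC9, a histone chaperone, of 0.823. This median was -0.0031 over 5 genes at a minimum signal of 200. It was -0.07 over 4 without _s_at and _x_at probe sets, and -0.66 over 5 after scaling to the spike-ins. TRiC/CCT and prefoldin had a median of 0.20 over 12 genes, with CCT2 at a ratio of 1.27 and CCT3 at 1.04. This median was 0.06 with the trend on signal removed and 0.04 after quantile normalization. It turned to -0.46 after scaling to the spike-ins. HSP70 exchange factors had a median of -0.18 over 8 genes, which was 0.05 at a minimum signal of 50, and STUB1, the ubiquitin ligase CHIP, had a ratio of 1.30 and ST13 of 1.08. PTGES3, CCT2 and STUB1 are bright, and the 2 brightest of 20 bins of signal had median ratios of 1.20 and 1.41 on the T-47D arrays. Mitochondrial chaperones and proteases had a median of -0.028 over 13 genes, which ran from -0.52 after scaling to the spike-ins to 0.37 when probe sets of a gene were averaged, AFG3L2 having a ratio of 0.741. The small heat shock proteins measured beside HSPB1 were HSPB8 at a ratio of 0.683 and CRYAB, αB-crystallin, at 0.696, a median of -0.54. The other HSP70 relatives measured were HSPA14 at a ratio of 1.78 and HSPA9, the mitochondrial HSP70, at 1.11, a median of 0.49, which was -0.16 after scaling to the spike-ins. Over 3 genes this median was -0.055 after quantile normalization and 0.15 at a minimum signal of 50. Of the HSF family and its regulators, HSBP1, a repressor of HSF1, had a ratio of 1.66 and SIRT1 of 0.967, a median of 0.34. That median was 0.017 over 4 genes at a minimum signal of 50, and rested on 1 gene after scaling to the spike-ins. After scaling to the spike-ins the T-47D medians of the 9 lists lay between -1.20 and 0.08. In MDA-MB-231 cells the medians of the 9 lists lay between -0.19 and 0.14.

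**Figure D5:**
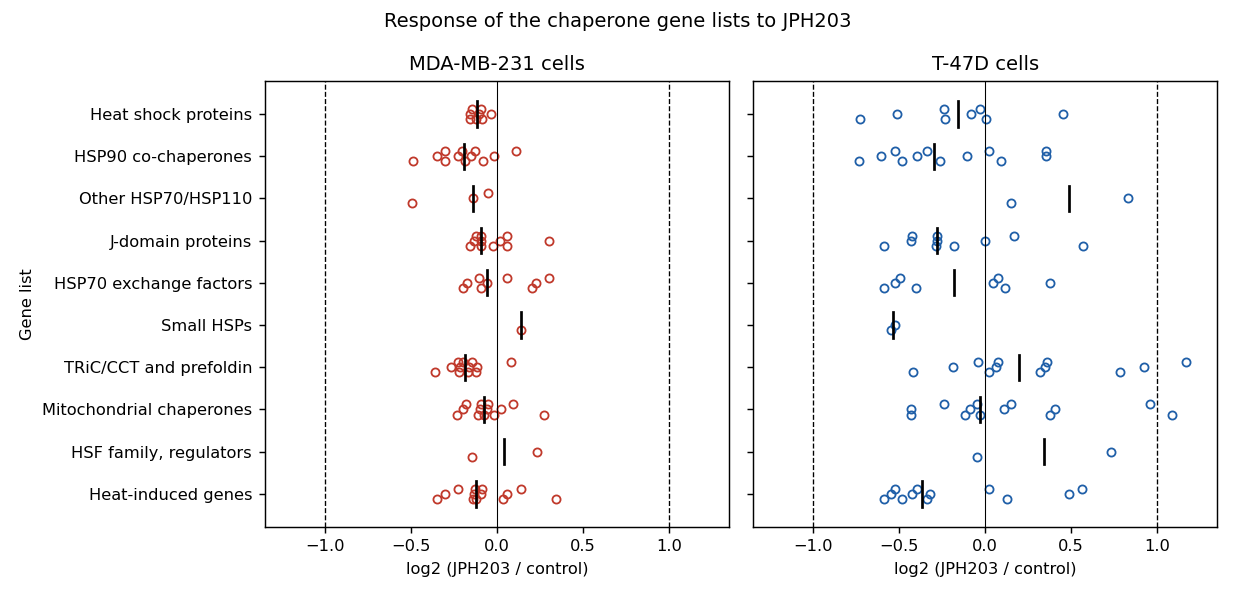
log2 ratio of JPH203 to control (x axis) of the genes of each chaperone list (y axis), MDA-MB-231 at left in red and T-47D at right in blue, each point being 1 gene that read 100 or more on both arrays of the line and each bar the median of its list. The dashed lines are 2-fold; VBP1 and HSCB lie beyond the line in T-47D cells, and in MDA-MB-231 cells no point does.

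In the control arrays 27 of 72 genes of these lists differed 2-fold, beside the 47.3% of all genes. Like HSPB1, HSPB8 was higher in T-47D cells, at 1236.5 against 114, 10.9 times as much, and CRYAB had 235.5 there and was below the minimum in MDA-MB-231 cells. Like HSPH1, the HSP70 partners DNAJB6, at 1306.5 against 231.5, and DNAJA1, at 2834 against 993, were higher in MDA-MB-231 cells. FKBP4, an HSP90 co-chaperone of steroid receptors, was higher in T-47D cells, at 1243 against 399. BAG4 and CDC37 were higher in MDA-MB-231 cells with ratios of 2.39 and 2.03, and BAG1 and HSPBP1 lower with 0.488 and 0.458. Of the chaperonin and prefoldin genes, CCT5, CCT4 and VBP1 had ratios of 2.30, 2.03 and 2.10 and PFDN5 of 0.341. Of the mitochondrial genes, HTRA2, GRPEL1 and AFG3L2 had ratios of 2.31, 2.29 and 2.28, and DNAJC19 of 0.299.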

How the data were processed

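The authors deposited linear signal intensity values for 54675 probe sets on 4 arrays, 1 per condition. The submitters' processing notes name GCOS, with a version not given in the sources used here. Each array's 2% trimmed mean was close to 100, as scaling of single arrays gives, and no normalization between arrays is stated. In the platform annotation 41097 probe sets have 1 gene, 1801 have several and 11777 are not listed. A ratio is a signal divided by that of the paired control array. A gene was called where the ratio reached 2 or 0.5 and both arrays read 100 or more, or either array for the 2 controls. No test was possible with 1 array per condition, whose number limits the precision. Signals under 0.1 were set to 0.1 before log2.

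All 10 genes are named, and of each wider list up to 4 genes called with JPH203, the 2 brightest where fewer than 2 were called, and up to 4 called between controls with enough signal in both. The genes and lists were chosen with earlier results of these data known. Alternatives were 3 scalings, loess on signal or gene length (span 0.4), a pseudocount of 16, other minimum signals and folds, and other choices of probe set. Genomic lengths came from a RefSeq table of GRCh38.p14 and the promoters with their coordinates from RefSeq windows of that build, since probe sets carry none. Python 3.11.15, numpy 2.4.6, pandas 2.3.3, statsmodels 0.14.6 and matplotlib 3.10.9 were used.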

Additional observations from a re-analysis of the deposited data

Results flagged for a closer look

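In 2 of the 8 genes measured in both lines the ratio of JPH203 to control lay on opposite sides of 1 in the 2 lines, with 1 array per condition, and the difference was not tested. For HSPE1 the log2 ratio was 0.45 in T-47D cells against -0.08 in MDA-MB-231 cells, a difference of 0.54. Its T-47D ratio of 1.37 lay within the central 95% of the 500 probe sets nearest in signal, 0.586 to 2.09. For HSPD1 it was 0.0063 in T-47D cells and -0.10 in MDA-MB-231 cells, a difference of 0.11, smaller than the SD of 0.24 between probe sets of 1 gene on the T-47D arrays. The second bright HSPD1 probe set had a ratio below 1 in both lines, 0.900 in T-47D and 0.893 in MDA-MB-231 cells.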

How the results depend on the processing

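With JPH203 the count of these genes called was 0 in MDA-MB-231 cells under all 13 alternatives, and in T-47D cells 1, HSPA4, at a 1.5-fold threshold or after scaling to the spike-ins and 0 otherwise. The median log2 ratio in T-47D cells was -0.43 after quantile normalization, -0.42 after loess on signal and -0.74 after scaling to the spike-ins. Between controls 9 genes were called after scaling to the spike-ins, with a median of 2.25, where 6661 of all 8943 genes were higher and 440 lower. At 1.5-fold 5 were called, where 2757 of 8258 genes were higher and 2783 lower. Without _s_at and _x_at probe sets 0 of the 4 left were called, where 1442 of 5603 genes were higher and 1380 lower. In the wider lists 5 of 90 genes were called in MDA-MB-231 cells with no minimum signal, where 2393 of all 19775 genes were higher and 2265 lower. In T-47D cells 10 of 90 were with no minimum signal, where 3122 of all 19775 genes were higher and 2404 lower. At 1.5-fold 11 of 64 were, where 742 of 6413 genes were higher and 874 lower. After scaling to the spike-ins 11 of 49 were, all lower and without VBP1 and HSCB, where 793 of 4009 genes were lower. After median centring 1 of 64 was, with 70 of 6033 genes higher and 278 lower. Without _s_at and _x_at probe sets 1 of 32 was, with 98 of 4069 genes higher and 102 lower. At 3-fold 0 of 64 were, with 22 of 6413 genes higher and 4 lower. Between controls 64 of 74 were after scaling to the spike-ins, 42 of 72 at 1.5-fold, 11 of 72 at 3-fold and 16 of 37 without _s_at and _x_at probe sets. At 3-fold 1133 of all 8258 genes were higher and 1203 lower, and the all-gene counts of the other settings are those given above between controls. Fewer genes tested is part of the count of 16, and the causes of the other moves were not tested. Of 255 values of single genes, 226 moved by less than the SD between probe sets of a gene. Other minimum signals only filter genes, so 25, 24 and 25 of these values could not move. Leaving out _s_at and _x_at probe sets kept the same probe set for HSP90AB1 and HSF1. Averaging probe sets kept it for HSPE1 and HSPB1, so those values could not move either. The pseudocount gave 25 more that stayed. With scaling to the spike-ins 16 values moved and 8 did not. Scaling to the spike-ins put the median log2 ratio of all genes at -0.55 in T-47D cells and 1.81 between controls, with 15 genes higher and 793 lower in T-47D cells against 141 and 153 as deposited. After median centring these were 70 and 278, and 134 and 109 after quantile normalization. No paired analysis was possible because each condition has 1 array and no replicate numbers. No JPH203 ratio was read where either array was under 100, as for HSF1 in both lines.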
